A study of Mus musculus with 44 samples.

Results

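The 9 genes described here, C1qa, C1qb, C1qc, Csf1r, Cx3cr1, Ctss, P2ry12, Tyrobp and Trem2, are markers by which microglia are recognized in mouse brain. They were taken by symbol, through their RefSeq accessions, from 17156 genes, and all 9 were listed. Levels of mRNA were measured by RNA-seq, ribosome occupancy by ribosome profiling, which sequences the fragments that ribosomes protect (RPFs), and poly(A)-tail length by TAIL-seq or PAL-seq v2, which read the 3′ end of an mRNA together with its tail. Hippocampi and visual cortex were measured by PAL-seq v2, and cultures and adult cortex by TAIL-seq.

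The tissues were hippocampus and cortex of adult male mice and hippocampi of mouse embryos. The 9 cultures were cortical neurons from pooled newborn pups of both sexes, all treated with cytosine arabinoside, which kills dividing cells. At DIV14 (14 days in vitro) 1 culture was unstimulated, 1 had received brain-derived neurotrophic factor (BDNF) for 30 min and 1 glutamate with glycine (glu/gly) for 30 min. Lentivirus was added to another 3 DIV14 cultures on day 5, and carried GFP alone, GFP with miR-1 or GFP with miR-155 under the synapsin promoter, which drives expression in neurons. At DIV10, 1 culture was unstimulated and 2 had received KCl for 10 or 30 min. Visual cortex came from 8 mice kept in darkness for 1 week, of which 4 then had 1 h of light. Each culture and tissue was 1 library per assay, so these values have no replicate check. The 3 untransduced and the 3 transduced DIV14 cultures each had another stimulus or virus, so they were not treated as replicates, and no test over samples was run on them. Only the visual cortex had replicates, 4 mice per group.

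Libraries held from 448022 to 7689624 reads on genes for RNA-seq, from 817114 to 23212489 RPFs, from 86841 to 1057812 tail tags in cultures and the 3 tissues, and from 1233538 to 4812273 tail tags in visual cortex. Hippocampal RNA was poly(A)-selected, while RNA of adult cortex and 6 cultures was depleted of rRNA. Levels are given as CPM, the counts of a gene per 1000000 counts on genes, of RNA-seq reads (RNA CPM), RPFs (RPF CPM) or tail tags (tag CPM). Intervals are exact (Clopper-Pearson, 95%) and cover counting error only, as no molecular identifiers were used. The miR-1 and miR-155 ribosome-profiling libraries carried contradicting labels and entered no comparison.

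Microglia are the resident macrophages of the brain parenchyma. They depend on signalling through the Csf1r receptor, survey neurons through receptors for fractalkine and purine nucleotides, and produce much of the complement component C1q of the brain, which tags synapses and debris for removal. C1qa, C1qb and C1qc encode the chains of C1q. Csf1r encodes the receptor for CSF1 and IL-34, Cx3cr1 the fractalkine receptor and P2ry12 a receptor for ADP. Trem2 encodes a lipid-sensing receptor that signals through the adaptor encoded by Tyrobp, and Ctss encodes the lysosomal protease cathepsin S.

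The members are scattered over the genome except for the C1q genes, which are neighbours on chromosome 4 (GRCm38.p6, 136880126 to 136898844, minus strand, 3 exons each). Cx3cr1 lies at chr9:120048683-120068296 and Ctss at chr3:95526786-95556405. P2ry12 lies at chr3:59216271-59262985, Tyrobp at chr7:30413782-30417582 and Trem2 at chr17:48346401-48352276. Csf1r, with 22 exons, is the most divided of the members. The members were short. Their median coding length was 762 nt against 1344 nt over 16970 genes, with 8 of 9 under the latter, and Csf1r, at 2934 nt, was the exception. Their median 3′ UTR was 241 nt against 916 nt, with 7 of 9 under it. The exceptions were Cx3cr1, with 2587 nt, and P2ry12, with 938 nt. Wobble positions of codons were 65.0% G or C in the median member and 61.1% in the median gene.

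Because the members rose and fell together across the libraries, their promoters were searched for the core of the site of PU.1, a transcription factor of macrophages. Of the members, 6 were in the RefSeq promoter table of GRCm38.p6, which spans 250 bases before to 50 after each start. The letters GAGGAAGT, on either strand, were in 2 of the 6, against 3.20% of 32851 promoters. The shorter AGGAAGT, which is contained in GAGGAAGT and was searched afterwards, was in 4 of the 6, against 9.35% of all. The sequence around each of these 4 matches is shown 5′ to 3′ on the strand of the gene, with the motif or its reverse complement in capitals. The windows are chr4:136886207-136886313 (minus) for C1qb, chr4:136893063-136893164 (minus) for C1qc, chr3:95526724-95526793 (plus) for Ctss and chr3:59262991-59263097 (minus) for P2ry12.
C1qb: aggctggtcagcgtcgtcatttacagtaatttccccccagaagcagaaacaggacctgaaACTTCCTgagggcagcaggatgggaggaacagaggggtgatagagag
C1qc: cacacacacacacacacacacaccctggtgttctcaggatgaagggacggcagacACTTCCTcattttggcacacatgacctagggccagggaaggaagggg
Ctss: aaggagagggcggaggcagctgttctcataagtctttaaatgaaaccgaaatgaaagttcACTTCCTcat
P2ry12: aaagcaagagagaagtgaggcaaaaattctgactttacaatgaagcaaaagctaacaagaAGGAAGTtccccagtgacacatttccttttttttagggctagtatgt
The match began 53 bases before the start of C1qb, 195 before that of C1qc, 2 before that of Ctss and 52 before that of P2ry12. Starts are those of the promoter table, and that of C1qc lies inside the gene's annotated span. It was on the strand opposite to the gene in C1qb, C1qc and Ctss and on the same strand in P2ry12. These are matches of letters, and binding was not measured.

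The first comparison asked how much of the microglial mRNA of cortex was present in cortical cultures. Adult cortex held 404 CPM of member RNA-seq reads and 596 CPM of member RPFs, whereas the unstimulated DIV14 culture held 31.4 and 24.0. The summed members were thus 12.9-fold higher in cortex by RNA-seq (interval 7.86 to 22.6), 24.8-fold by RPFs (20.5 to 30.5) and 13.1-fold by tail tags (9.89 to 17.6). In bulk samples such as these, fewer cells of a type and less RNA per cell cannot be told apart.

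Of the C1q genes, C1qa had 51.5 RNA CPM in adult cortex and 7.86 in the unstimulated DIV14 culture. C1qb had 37.4 and 5.90, and C1qc 38.6 and 1.97. The corresponding RPF CPM were 64.3 and 5.53 for C1qa, 76.4 and 4.15 for C1qb and 53.1 and 4.84 for C1qc. C1q RPFs were therefore 11.6-fold (7.71 to 18.3), 18.4-fold (11.5 to 31.3) and 10.96-fold (7.07 to 17.9) higher in cortex. The culture counts behind these folds were small, at 4, 3 and 1 RNA-seq reads and 24, 18 and 21 RPFs.

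Among the receptors, Csf1r (chr18:61105572-61131139, plus strand) had 143 RNA CPM and 232 RPF CPM in adult cortex, against 1.97 and 4.84 in the unstimulated DIV14 culture, a 72.6-fold difference by RNA-seq, which rests on 1 read in the culture, and 47.9-fold (31.3 to 77.6) by RPFs. Cx3cr1 had 41.2 RPF CPM in cortex and 0.922 in the culture, 44.7-fold apart (17.3 to 165). P2ry12 had 29.9 RPF CPM in cortex and none in the culture. With 3 RPFs as the floor for the culture, P2ry12 was at least 43.2-fold higher. RPFs of Trem2 were 29.5-fold higher in cortex (7.96 to 247), those of its adaptor Tyrobp 6.51-fold (2.37 to 24.9) and those of the protease gene Ctss 34.4-fold (18.6 to 72.1). The interval of the RPF fold of Csf1r lay above those of C1qa and C1qc, but this order was not found in tail tags. By these Csf1r was 11.99-fold higher in cortex (6.145 to 26.1), from 69 and 10 tags, C1qa 15.9-fold (6.87 to 45.3), C1qb 20.4-fold (7.47 to 78.1) and C1qc 8.96-fold (4.90 to 17.7), all with overlapping intervals.

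For a share of genes past 4-fold, a gene needed at least 20 counts over both libraries, and counts under 3 were set to 3. By RNA-seq 6 of 7 tested members were past 4-fold higher in adult cortex, against 4.85% of 9914 genes. By RPFs it was 9 of 9, against 5.32% of 12414 genes, and by tail tags 7 of 7, against 2.81% of 8547. By RNA-seq and tail tags the tested members met the minimum only through cortex, as did most by RPFs. These shares therefore lean towards higher values. Among 30 other genes of homeostatic microglia, 19 of 30 were past 4-fold higher by RPFs, among them Tmem119, P2ry13 and Itgam. Of 8 oligodendrocyte genes all 8 were past it, and of 7 tested endothelial genes 5. Astrocyte and neuron genes passed it in 2 of 9 and 2 of 8. None of 15 tested interferon-response genes were higher, and 8 were past 4-fold lower in cortex, against 3.44% of all genes.

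**Figure D1:**
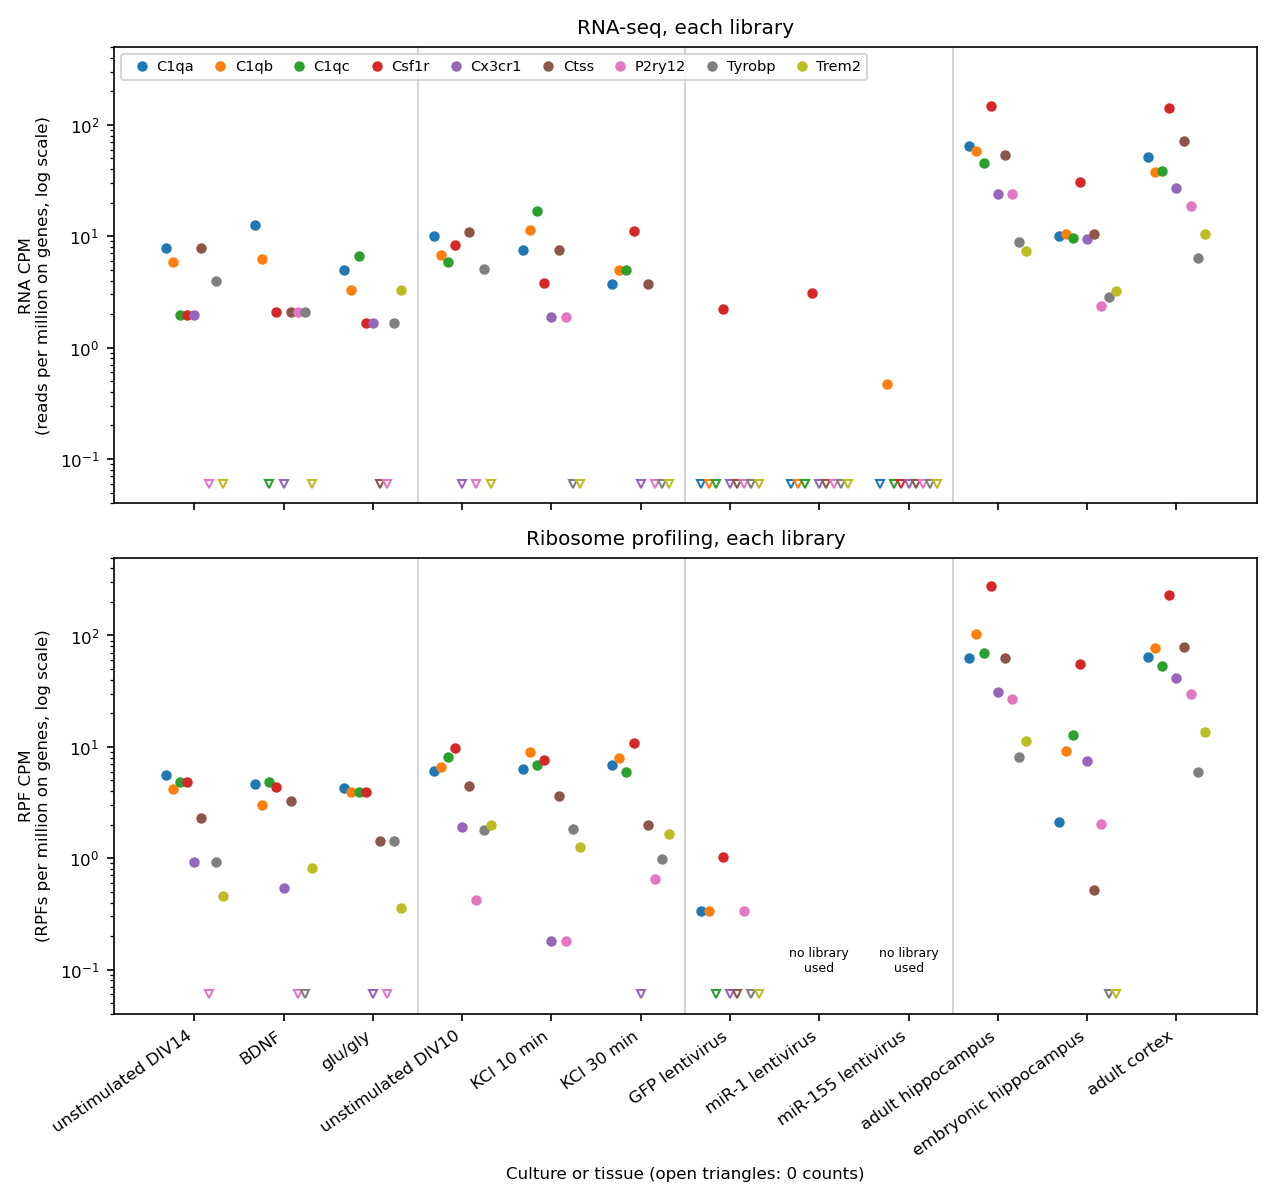
RNA CPM (top, RNA-seq) and RPF CPM (bottom, ribosome profiling) of each of the 9 genes in each culture and tissue, on a log scale, with 1 library per point and open triangles for 0 counts. The adult tissues lie highest, up to 146 RNA CPM and 281 RPF CPM for Csf1r, and in the 3 lentivirus cultures nearly all genes are at 0 reads.

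Beside the untransduced cultures, the transduced ones held almost no member reads. The 3 untransduced DIV14 cultures had 16, 13 and 14 member reads, or 43 of 1589860 reads, which is 27.0 CPM (19.6 to 36.4). The 3 transduced cultures together had 5 of 3527941, which is 1.42 CPM (0.460 to 3.31). C1qa, C1qc, Cx3cr1, Ctss, P2ry12, Tyrobp and Trem2 had 0 reads in all 3 transduced cultures, which allows up to 1.05 CPM each by the exact interval. The 5 reads were Csf1r, with 1 in the GFP and 3 in the miR-1 culture, and C1qb, with 1 in the miR-155 culture. By library, the untransduced DIV14 cultures lay between 23.3 and 31.4 CPM of member reads and the transduced between 0.474 and 3.10.

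Summed member counts were also lower in the other assays. The GFP culture had 6 member RPFs, 2.03 CPM (0.747 to 4.43), against 104, 79 and 54 RPFs, or 19.2 to 24.0 CPM, in the untransduced DIV14 cultures. C1qa had 1 RPF in the GFP culture and 24 in the unstimulated DIV14 culture, a ratio of 0.0613 (0.00149 to 0.376). C1qb had 1 and 18 (0.0817, interval 0.00196 to 0.517), C1qc 0 and 21, Csf1r 3 and 21 (0.210, interval 0.0401 to 0.704) and Ctss 0 and 10. The members with enough counts, C1qa, C1qc and Csf1r, were 3 of 3 past 2-fold lower, against 4.77% of 11472 genes. They met the count minimum only through the unstimulated culture, so this share adds no support to the ratios. For the sum of the 9, the ratio of the GFP to the unstimulated DIV14 culture was 0.0710 by RNA-seq (0.00169 to 0.457), 0.0848 by RPFs (0.0304 to 0.191) and 0.191 by tail tags (0.0503 to 0.517). In tail sequencing the 3 transduced cultures held 10.3 to 12.5 CPM of member tags and the untransduced DIV14 cultures 33.8 to 53.7. With the 3 transduced cultures summed against the 3 untransduced DIV14 ones, a comparison added after the data were seen, the ratio was 0.0524 by RNA-seq (0.0162 to 0.132) and 0.243 by tail tags (0.132 to 0.415), and the difference between the assays was not tested.

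Csf1r was lower beyond counting error by RPFs alone of the assays. Its GFP ratio by tail tags was 0.803 (0.142 to 3.12), from 3 and 10 tags. Over the transduced and the untransduced DIV14 cultures it had 1.13 (0.309 to 2.90) and 1.89 (0.389 to 5.51) RNA CPM and 5.32 (2.14 to 10.96) and 8.62 (5.58 to 12.7) tag CPM, with overlapping intervals.

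Genes of other cell types and responses differed to other extents between the same cultures. Complement genes other than C1q summed to 470 to 735 RNA CPM in the untransduced DIV14 cultures and 23.7 to 136 in the transduced ones. Interferon-response genes were at 238 to 436 and 131 to 208 RNA CPM, and reactive microglia genes at 111 to 167 and 54.7 to 56.4. The transduced cultures were thus lower in each of these lists. The 30 homeostatic microglia genes were at 299 to 334 and 287 to 357 RNA CPM, so the ranges of their sum overlapped. This sum weighs its most abundant genes most and does not describe each gene. Itgam, of this list, was at 1.97, 4.17 and 3.32 RNA CPM in the untransduced DIV14 cultures and at 0 in the transduced ones. The other genes of the list are not given singly in RNA-seq. Neuron genes were at 3868 to 4158 and 4460 to 4584 RNA CPM, and astrocyte genes at 1729 to 2229 and 1170 to 1679. Ranges also overlapped for oligodendrocyte genes (52.1 to 66.8 and 46.5 to 58.0 RNA CPM), endothelial genes (13.3 to 39.3 and 5.16 to 18.5) and border macrophage genes (6.26 to 11.8 and 1.89 to 6.70). Those of the ligands and partners of the receptors overlapped too (2078 to 2860 and 1332 to 2248). Neuron and astrocyte genes did not overlap, with neuron genes higher and astrocyte genes lower in the transduced cultures. A gap was thus also found in some lists of other cell types. The share of all genes with such a gap was not counted. By RPFs in the GFP culture, 10 of 15 tested interferon-response genes, 4 of 8 reactive microglia genes, 1 of 9 homeostatic genes (Laptm5), 1 of 9 astrocyte genes and 0 of 8 neuron genes were past 2-fold lower. Per the study's methods, 6 cultures were prepared in 2 batches of 3 that are not named, so batch and virus cannot be told apart. The miR-1 and miR-155 cultures differed from the GFP culture by ratios of 1.09 (0.235 to 5.497) and 1.22 (0.289 to 5.87) in member tail tags, from 4, 5 and 6 tags, which sets no narrow limit on a difference.

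**Figure D2:**
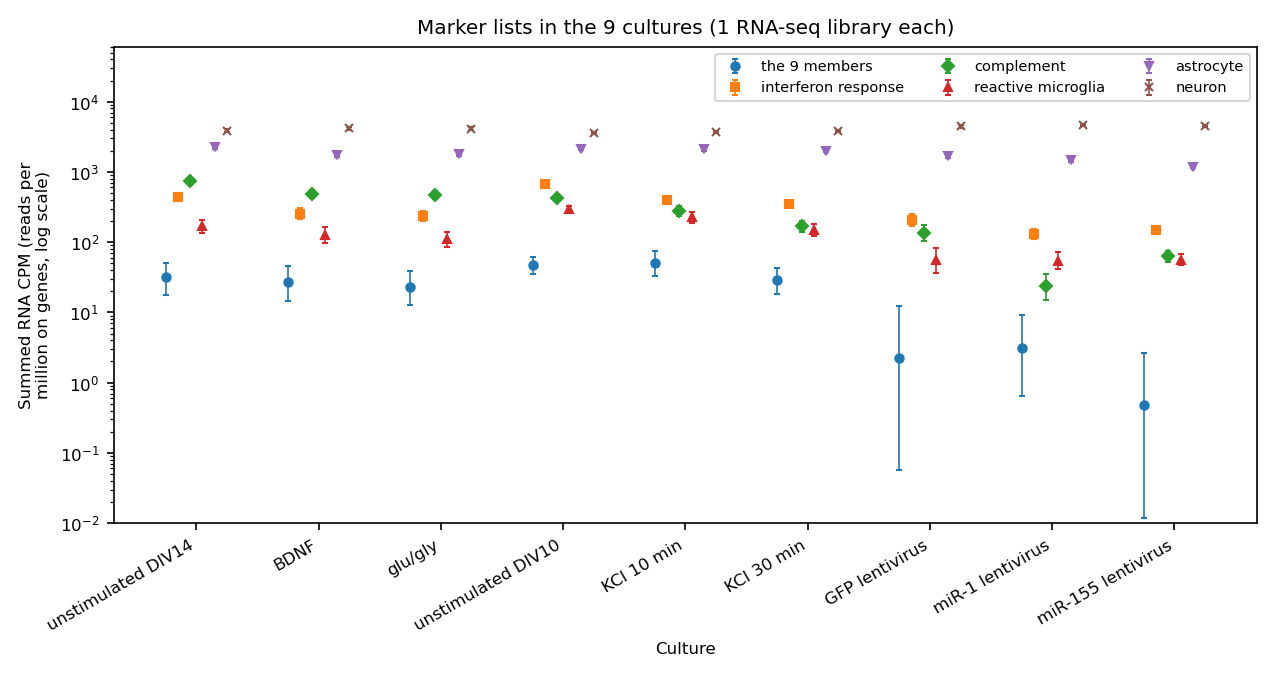
Summed RNA CPM (log scale) of 6 gene lists in the 9 cultures, 1 library each, with exact 95% counting intervals. The 9 members lie between 23.3 and 50.8 RNA CPM in untransduced cultures and between 0.474 and 3.10 in the 3 lentivirus cultures, while neuron genes lie within 3615 to 4584.

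Stimulation was compared with the matching unstimulated culture. After BDNF the summed members had a ratio of 0.862 in RNA-seq (0.381 to 1.91), 0.891 in RPFs (0.657 to 1.21) and 0.933 in tail tags (0.629 to 1.38). After glu/gly the ratios were 0.740 (0.335 to 1.62), 0.801 (0.565 to 1.12) and 0.629 (0.382 to 1.01). With RPFs, 0 of 5 tested members were past 2-fold after BDNF, against 3.93% of all genes in either direction, and 0 of 4 after glu/gly, against 3.74%. All of these intervals include 1, and differences within them were not detectable at this depth.

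At DIV10, KCl for 10 min gave summed ratios of 1.08 in RNA-seq (0.657 to 1.74), 0.904 in RPFs (0.759 to 1.07) and 0.996 in tail tags (0.609 to 1.63). KCl for 30 min gave 0.609 (0.358 to 1.01), 0.897 (0.721 to 1.11) and 0.610 (0.362 to 1.02). By RPFs 0 of 7 tested members were past 2-fold after 10 min, against 7.65% of genes in either direction. After 30 min 1 of 7 was past 2-fold lower, against 6.16% of genes. It was Ctss, with 42 RPFs in the unstimulated and 6 in the stimulated culture and a ratio of 0.444 (0.154 to 1.05), an interval that includes 1. Cx3cr1, with 18 RPFs unstimulated, 1 after 10 min and 0 after 30 min, was below the count minimum. Its ratio at 10 min was 0.0955 (0.00229 to 0.605), and it is named after its values were seen.

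The DIV10 and DIV14 cultures are from separate experiments, so age in culture and experiment cannot be told apart. Between the unstimulated cultures the summed members were 1.71-fold higher at DIV10 in RPFs (1.37 to 2.14), with 1.495-fold in RNA-seq (0.845 to 2.79) and 1.14-fold in tail tags (0.731 to 1.76). Of 8 members tested by RPFs, 3 were past 2-fold higher, against 9.81% of genes. These were Csf1r (92 and 21 RPFs, 2.00-fold, 1.24 to 3.39), Cx3cr1 (18 and 4, 2.06-fold, 0.678 to 8.37) and Trem2 (19 and 2, 4.35-fold, 1.05 to 38.5). Cx3cr1 and Trem2 met the count minimum mostly through the DIV10 culture. The share of members therefore leans towards higher values and adds no support to the ratios.

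The second comparison, of adult with embryonic hippocampus, covers the maturation of the tissue. The adult hippocampus held 433 CPM of member reads and the embryonic hippocampus 89.3, a ratio of 4.84 (4.46 to 5.27). In RPFs they held 656 and 89.6 CPM, a ratio of 7.33 (6.996 to 7.68). The median gene had a log2 ratio of -0.23 in RNA-seq and -0.18 in RPFs. All 9 genes were higher in the adult in both assays. Tail sequencing of the hippocampi gave 55 and 12 member tags and a ratio of 1.79 (0.949 to 3.68).

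C1qa had 64.7 RNA CPM in the adult and 10.1 in the embryonic hippocampus (6.38-fold, 5.01 to 8.21), but 62.4 and 2.11 RPF CPM (29.5-fold, 22.2 to 40.1). C1qb had 58.4 and 10.5 RNA CPM (5.54-fold, 4.36 to 7.12) and 103 and 9.18 RPF CPM (11.2-fold, 9.71 to 12.9). C1qc had 45.2 and 9.62 RNA CPM (4.70-fold, 3.64 to 6.13) and 70.2 and 12.9 RPF CPM (5.45-fold, 4.81 to 6.19). Thus the chains of C1q had RNA ratios with overlapping intervals, and RPF ratios with intervals that did not overlap.

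Csf1r had 146 and 30.7 RNA CPM (4.77-fold, 4.14 to 5.52) and 281 and 55.5 RPF CPM (5.06-fold, 4.76 to 5.38), the same ratio within counting error in both assays. P2ry12, which marks mature microglia, had 23.8 and 2.34 RNA CPM (10.2-fold, 6.24 to 17.5) and 26.9 and 2.02 RPF CPM (13.3-fold, 9.87 to 18.3). Cx3cr1 had 23.9 and 9.49 RNA CPM (2.52-fold, 1.90 to 3.36) and 31.2 and 7.41 RPF CPM (4.21-fold, 3.55 to 5.002). The RNA ratio of P2ry12 was above that of every other member except C1qa, C1qb and Ctss by intervals that did not overlap.

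Ctss had 54.1 and 10.4 RNA CPM (5.20-fold, 4.08 to 6.70), yet 63.0 and 0.517 RPF CPM, from 1364 and 12 RPFs (122-fold, 69.5 to 236). Tyrobp had 8.93 and 2.86 RNA CPM (3.12-fold, 1.90 to 5.32) and Trem2 7.42 and 3.25 (2.28-fold, 1.40 to 3.83). Both had 0 RPFs in the embryonic hippocampus, against 177 for Tyrobp and 246 for Trem2 in the adult. With the floor of 3 RPFs the adult was at least 63.2-fold and 87.9-fold higher.

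Few RPFs for the RNA level were common in the embryonic library. Among genes with like RNA-seq reads (from 0.8 times those of Ctss to the reciprocal of this), 113 of 1029 had as few RPFs as Ctss (10.98%). For C1qa it was 212 of 985 (21.5%), for Tyrobp 227 of 562 (40.4%) and for Trem2 222 of 602 (36.9%). At 3 to 5 RNA CPM, 27.6% of genes had 0 RPFs in embryonic hippocampus, 18.05% in adult hippocampus, 0.847% in adult cortex and 3.12% in the unstimulated DIV14 culture. The part of this in the RPF ratios of Ctss, C1qa, Tyrobp and Trem2 was not tested. Without Ctss, Tyrobp and Trem2, a choice made after their values were seen, the summed RPF ratio was 6.44.

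By RNA-seq 6 of 9 members were past 4-fold higher in the adult, against 12.4% of 12882 genes. By RPFs it was 9 of 9, against 20.7% of 12817. Ctss, Tyrobp and Trem2 met the count minimum there only through the adult. In RNA-seq 16 of 28 tested homeostatic microglia genes were past 4-fold higher, as were 5 of 6 border macrophage genes, 6 of 9 astrocyte genes, 6 of 8 neuron genes and 8 of 8 oligodendrocyte genes. Among the ligands and partners of the receptors, Il34 (a ligand of Csf1r), Cx3cl1 (fractalkine, the ligand of Cx3cr1) and Apoe were past it, 3 of 7 tested. Border macrophage genes, which can share microglial markers, summed to 40.7 RNA CPM in the adult and 4.81 in the embryonic hippocampus, and blood leukocyte genes to 3.16 and 0.130. Their part in the member levels was not tested.

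**Figure D3:**
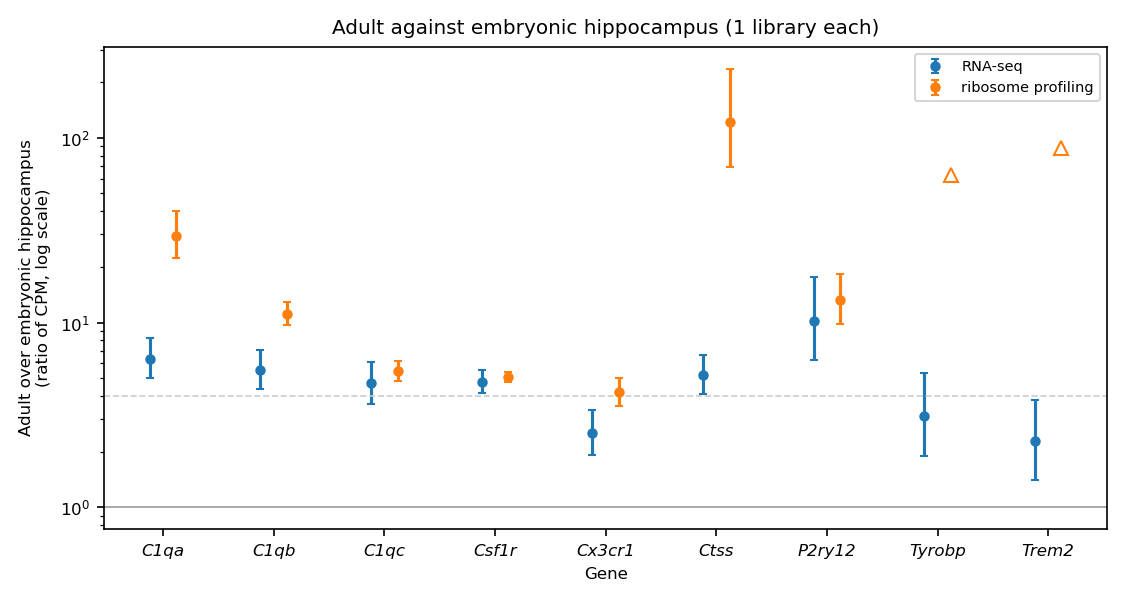
Ratio of adult to embryonic hippocampus in CPM for each of the 9 genes (log scale), for RNA-seq and for ribosome profiling, 1 library each, with exact 95% counting intervals, a dashed line at 4-fold and triangles for lower bounds. The RPF ratio of Csf1r (5.06) lies on its RNA ratio (4.77), whereas that of Ctss (122) lies far above its RNA ratio (5.20).

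Between adult cortex and adult hippocampus the result depended on the scaling. In CPM the summed ratios were 0.934 in RNA-seq (0.859 to 1.01) and 0.908 in RPFs (0.877 to 0.939), and none of the 9 was past 2-fold in either assay, against 20.6% of 12097 genes in RNA-seq and 32.2% of 12509 in RPFs. RNA ratios ran from 0.641 (C1qb, 0.485 to 0.836) to 1.42 (Trem2, 0.784 to 2.46), and RPF ratios from 0.734 (Tyrobp, 0.517 to 1.02) to 1.32 (Cx3cr1, 1.15 to 1.52). With the deposited reads per 1000000 mapped reads (RPM) in place of CPM, the summed RNA-seq ratio was 0.612 (0.562 to 0.664), and C1qb (0.420) and Tyrobp (0.472) were past 2-fold lower in cortex. That was 2 of 9 members, against 33.5% of genes in either direction, and the median gene had a ratio of 0.650. In RPFs on this scale 0 of 9 were past 2-fold, against 32.4% of genes, and the lowest ratio was 0.694 (Tyrobp). The ratios of single genes on this scale were added after the data were seen. The tail libraries, made by different methods, gave 2.84 (2.14 to 3.83). RNA selection also differed between these tissues.

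Between genes, levels were compared per length, in the deposited RPKM, in which the authors divide the reads by the coding length in kilobases and by the total of the library. In adult hippocampus RNA-seq the order was C1qa (34.7, interval 31.7 to 38.0), C1qb (30.3, 27.5 to 33.3), C1qc (24.2, 21.6 to 26.9), Ctss (20.5, 18.5 to 22.6), Csf1r (18.8, 17.7 to 19.9), Tyrobp (11.2, 8.63 to 14.3), P2ry12 (8.83, 7.57 to 10.3), Cx3cr1 (8.70, 7.46 to 10.1) and Trem2 (3.92, 2.94 to 5.11). In this order C1qb lay above C1qc, Csf1r above Tyrobp and Cx3cr1 above Trem2 beyond counting error, while the other neighbours had overlapping intervals. In adult cortex C1qa had 18.1 RPKM (14.5 to 22.3), Ctss 17.7 (14.7 to 21.1), C1qc 13.5, C1qb 12.7 and Csf1r 12.0, and these 5 lay above Cx3cr1, at 6.41 (4.70 to 8.56), without overlap. Tyrobp had 5.28 RPKM, P2ry12 4.56 and Trem2 3.64, with intervals that overlapped that of Cx3cr1. In embryonic hippocampus C1qb (6.83), C1qa (6.80), C1qc (6.43), Ctss (4.92), Csf1r (4.91), Tyrobp (4.48) and Cx3cr1 (4.32) were followed by Trem2 at 2.14 (1.39 to 3.16) and P2ry12 at 1.09 (0.644 to 1.72). P2ry12 was thus last in the embryo, within counting error of Trem2, but lay above Trem2 beyond counting error in adult hippocampus. In adult cortex the intervals of P2ry12 and Trem2 overlapped.

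Translational efficiency (TE) was the log2 ratio of RPFs to RNA-seq reads, each in the deposited RPM, for genes with an RNA-seq level of 10 RPM or more and at least 1 RPF. In adult hippocampus the median of 6341 genes was 0.88. Csf1r had 2.00, at percentile 91.5 (89.5 to 93.6), C1qb 1.87 (percentile 88.7), C1qc 1.70 (percentile 83.2), Ctss 1.28 (percentile 66.9) and C1qa 1.01 (percentile 55.3, 49.1 to 61.8). All 5 members past the cutoff were at or above the median gene, with a median percentile of 83.2. Among the C1q chains C1qa (0.86 to 1.16) lay below C1qb (1.72 to 2.03) and C1qc (1.52 to 1.87), whose intervals overlapped. In adult cortex, where the median of 5018 genes was 1.31, Csf1r had 2.29 (percentile 86.4), C1qa 1.91 (percentile 73.7) and Ctss 1.74 (percentile 68.2), and the other 6 were under the cutoff. Ranked among the genes past it, those 6 lay between percentiles 57.8 (Tyrobp) and 93.6 (C1qb). The members under the cutoff in adult hippocampus lay between percentiles 52.2 (Tyrobp) and 82.2 (Trem2).

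In embryonic hippocampus, where the median of 7443 genes was 0.67, only Csf1r of the 9 was past the cutoff. It had 1.64, at percentile 90.1 (83.7 to 94.9). Csf1r, the member with the longest coding sequence, therefore lay between percentiles 86.4 and 91.5 in all 3 tissues. Under the cutoff, embryonic C1qc had 1.20 (0.83 to 1.59, percentile 74.4), C1qb 0.59 (0.21 to 0.97, percentile 46.0) and P2ry12 0.57 (percentile 45.5). Cx3cr1 had 0.43 (percentile 40.1), C1qa -1.48 (percentile 5.45) and Ctss -3.55 (percentile 0.820). Tyrobp and Trem2 had 0 RPFs and so no TE. These percentiles are among the genes past the cutoff, which had more RNA. Among genes with like RNA-seq reads, 21.5% had as few RPFs as C1qa and 10.98% as few as Ctss. Summed over the 9 genes, log2 TE was 1.66 in adult hippocampus (percentile 81.9), 2.15 in adult cortex (percentile 82.2) and 0.79 in embryonic hippocampus (percentile 55.4). Csf1r weighs most in these sums, with 6081 of 14219, 1740 of 4468 and 1288 of 2080 RPFs. The embryonic sum thus mixes Csf1r with members of far lower TE, and does not describe each gene.

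In the cultures no member reached the cutoff. Summed over the members, log2 TE was 1.255 in the unstimulated DIV14 culture (0.49 to 2.11, percentile 54.7), 1.21 after BDNF and 1.06 after glu/gly (percentile 57.4 for both). It was 1.38 in the unstimulated DIV10 culture (0.97 to 1.81, percentile 59.8), 0.77 after KCl for 10 min (percentile 51.0) and 2.38 after KCl for 30 min (1.72 to 3.09, percentile 78.8). The intervals of unstimulated and 30 min KCl overlapped, and the median of all genes moved too, from 1.17 to 1.44.

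**Figure D4:**
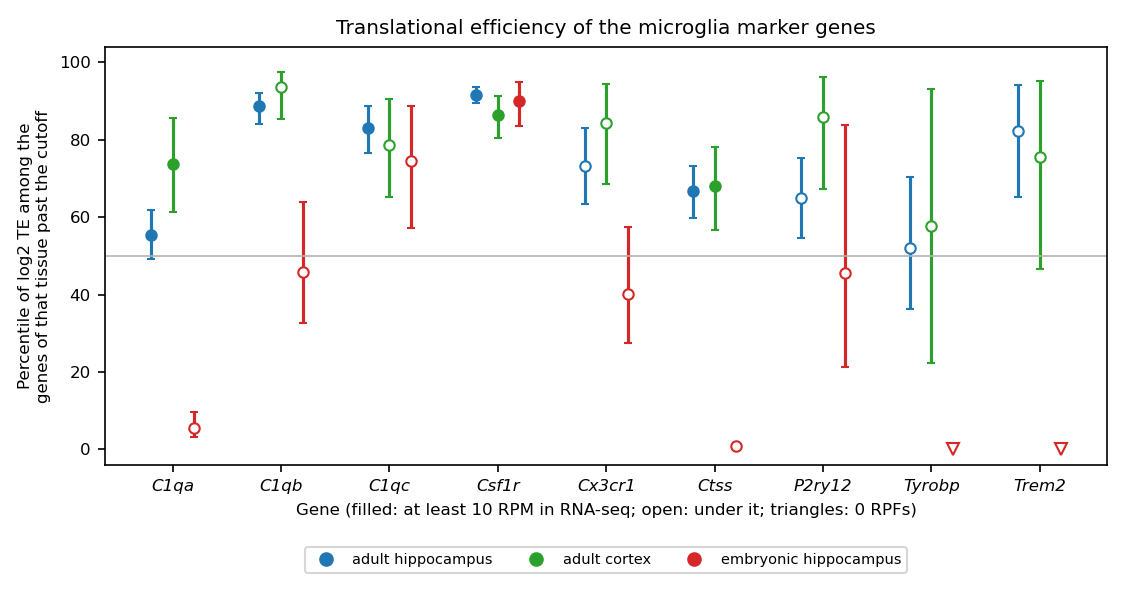
Percentile of the log2 TE of each of the 9 genes among the genes of that tissue past the cutoff, in adult hippocampus, adult cortex and embryonic hippocampus, with 95% counting intervals, filled where the gene had at least 10 RPM. Csf1r lies between 86.4 and 91.5 in all 3 tissues, while embryonic Ctss (0.820) and C1qa (5.45) lie near the bottom. Embryonic Ctss and C1qa were under the cutoff, unlike the genes they are ranked among.

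The visual cortex tested whether light changed microglial mRNAs or their tails within 1 h. Summed members were at 639, 578, 755 and 658 tag CPM in the 4 dark mice and 632, 592, 623 and 585 in the 4 light mice, with overlapping groups. Each of the 9 genes overlapped between the groups as well.

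Among the C1q genes, C1qa had 58.1, 54.0, 77.3 and 89.4 tag CPM in dark mice and 64.9, 61.9, 61.6 and 72.5 in light mice. C1qb had 65.7, 56.3, 89.8 and 82.1 in dark mice and 89.2, 63.2, 73.0 and 57.0 in light mice. C1qc had 62.2, 59.6, 81.2 and 83.7 in dark mice and 75.4, 67.0, 63.9 and 66.0 in light mice. Dark mice 3 and 4 were the highest dark mice for all of the C1q genes. Their border macrophage genes were also the highest of the dark mice, at 87.4 and 63.6 tag CPM against 30.8 and 24.9, and were at 11.3 to 59.4 in light mice. The part of such cells in the C1q levels was not tested.

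Of the receptors, Csf1r had 103, 86.4, 112 and 94.2 tag CPM in dark mice and 96.5, 102, 92.4 and 111 in light mice. Cx3cr1 had 112, 98.5, 112 and 97.4 in dark mice and 85.1, 96.4, 107 and 109 in light mice. P2ry12 had 56.8, 61.9, 69.5 and 47.5 in dark mice and 58.4, 63.2, 57.6 and 49.3 in light mice. Over all 8 mice Csf1r had 99.7 ± 9.07 (SD, n = 8) and Cx3cr1 102 ± 9.42.

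Ctss had 152, 128, 158 and 125 tag CPM in dark mice and 126, 106, 140 and 94.5 in light mice, so 2 light mice lay below all dark ones. Tyrobp had 21.9, 18.5, 37.5 and 32.2 in dark mice and 26.8, 24.9, 15.97 and 17.8 in light mice. Trem2 had 8.21, 15.2, 17.96 and 6.44 in dark mice and 9.73, 7.66, 12.0 and 7.73 in light mice.

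By edgeR's quasi-likelihood test with Benjamini-Hochberg adjustment over 9554 genes, 0 of 9 members changed with light, against 1.34% of all genes (128, of which 116 were higher). Of the members 0 had an unadjusted p under 0.05, and DESeq2 also called 0. The log2 change, light minus dark, was -0.23 ± 0.13 (SE) for Ctss, which had the lowest adjusted p of the members in edgeR, 0.60. It was 0.07 ± 0.12 for Csf1r, -0.04 ± 0.12 for Cx3cr1, -0.03 ± 0.14 for P2ry12, -0.03 ± 0.15 for C1qa and -0.02 ± 0.14 for C1qc. The largest in size were -0.39 ± 0.34 for Trem2 and -0.29 ± 0.25 for Tyrobp, the members with the fewest tags. None of 22 tested homeostatic microglia genes, 4 reactive microglia genes, 5 receptor partners, 3 complement genes or 7 interferon-response genes was called.

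**Figure D5:**
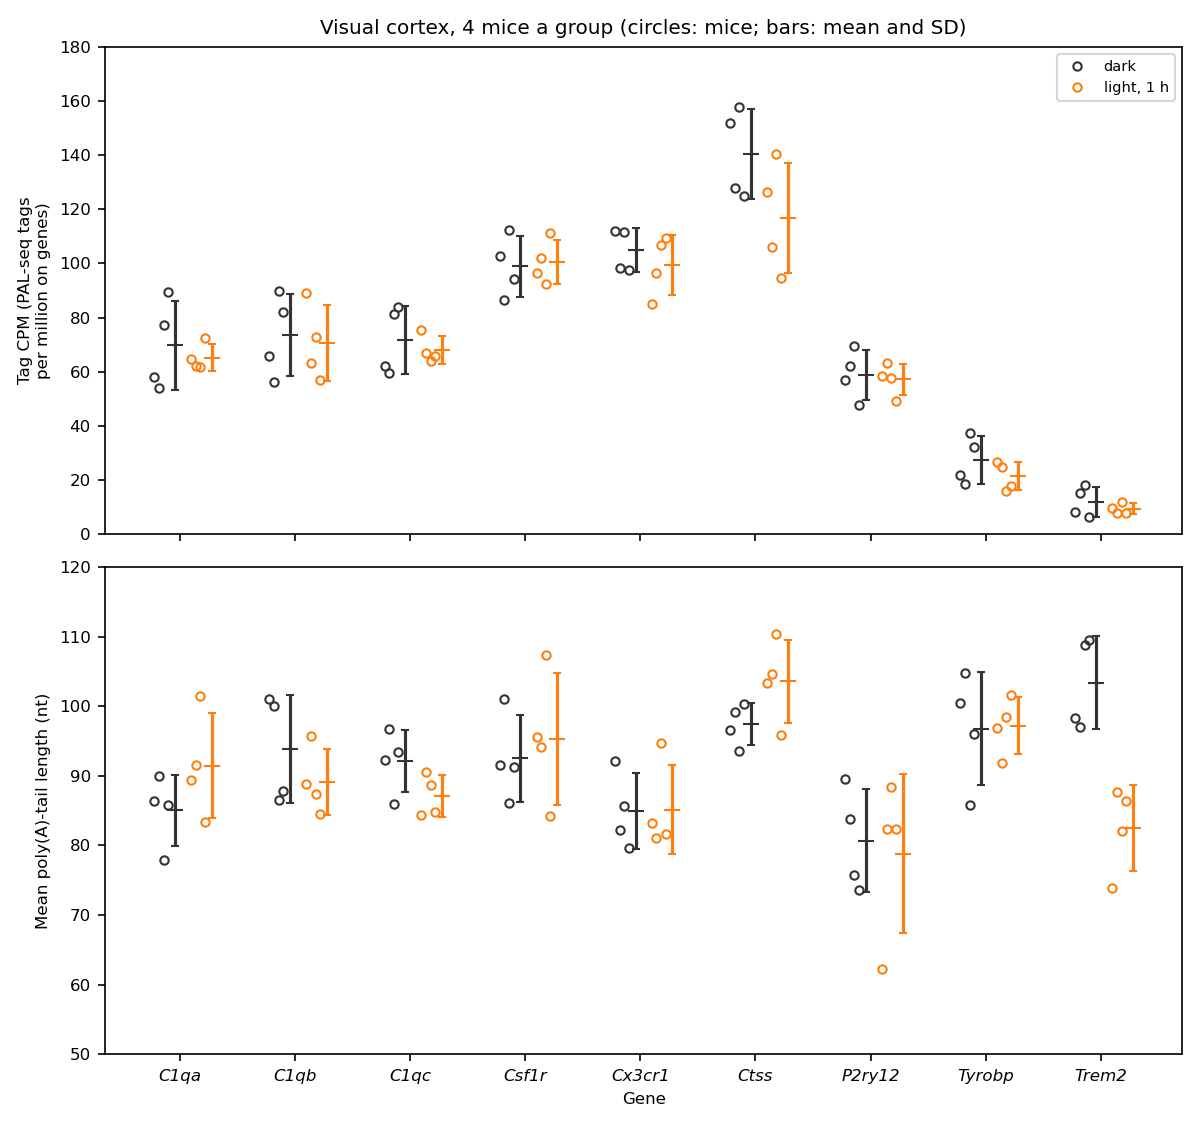
PAL-seq tag CPM on genes (top) and mean poly(A)-tail length in nt (bottom, axis from 50) of the 9 genes in visual cortex, with circles for mice, 4 dark and 4 light, and bars for mean and SD. Tag levels overlap between the groups for every gene, and tails do for all but Trem2, whose dark mice lie between 97.0 and 110 nt and light mice between 73.9 and 87.7 nt.

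Tails of the members were of ordinary length but differed among themselves. Over all 8 mice Ctss had the longest mean tail of the 7 members with at least 50 tags in each mouse, at 100 ± 5.48 nt (SD, n = 8), and P2ry12 the shortest, at 79.7 ± 8.96 nt. Ctss lay between percentiles 65.0 and 97.5 of the genes of a mouse and P2ry12 between 1.58 and 53.0. In every one of the 8 mice the tail of Ctss was longer than that of P2ry12. This pair was picked as the extremes of these same values, so the order adds no separate support. Adult cortex, by another method, gave 100 nt for Ctss from 85 tags, and 84.5 nt for P2ry12 from 46 tags, under that minimum. The order there was not the same throughout, as C1qc had 106 nt (67 tags) and Cx3cr1 82.5 nt (35 tags).

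Tails of Ctss were 96.5, 99.2, 93.6 and 100.4 nt in dark mice and 103, 105, 110 and 95.9 nt in light mice. Those of P2ry12 were 89.5, 83.9, 75.7 and 73.6 nt in dark mice and 62.2, 82.3, 88.4 and 82.3 nt in light mice. With limma over 4321 genes with at least 50 tags in each mouse, 0 of 7 tested members changed, against 0.231% of all genes, and 0 had an unadjusted p under 0.05. The 10 genes behind that share became 1 with a replicate block or on a log2 scale, and 1 to 21 without 1 mouse. The difference, light minus dark, was 6.42 nt for C1qa (95% interval -6.68 to 19.5) and 6.18 nt for Ctss (-6.92 to 19.3), the largest increases. It was -5.00 nt for C1qc (-18.1 to 8.09) and -4.77 nt for C1qb (-17.9 to 8.33). Csf1r, Cx3cr1 and P2ry12 differed by 2.81, 0.244 and -1.88 nt with intervals of the same width. The widths are equal because limma gave all 7 the same SE, 6.68 nt. These intervals and p-values therefore do not measure each gene's own spread over mice. The median over all genes was 3.75 nt.

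Trem2 had too few tags for that test, from 8 to 73 per mouse. Its mean tails were 98.3, 97.0, 109 and 110 nt in dark mice and 73.9, 87.7, 82.0 and 86.4 nt in light mice, or 103 ± 6.66 and 82.5 ± 6.21 nt (SD, n = 4 each). The groups did not overlap in Trem2 alone, 1 of 9 members, against 1.46% of 9454 genes with at least 5 tags in each mouse. Tyrobp, also under the tag minimum, had 96.8 ± 8.17 nt in dark and 97.2 ± 4.12 nt in light mice.

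In adult cortex, where the median of 2829 genes with at least 50 tags was 99.5 nt, tails were 98.7 nt for C1qa (55 tags) and 89.6 nt for Csf1r (69). Over all 422 member tags of adult cortex the mean was 95.2 nt. In the cultures the means over member tags were 93.9 nt in the unstimulated DIV14 culture (56 tags), 108 nt after BDNF (53) and 113 nt after glu/gly (27), and 105, 94.5 and 107 nt in the DIV10 cultures unstimulated, after 10 min and after 30 min of KCl (37, 35 and 29 tags). The lower of these rested on Csf1r, whose tails averaged 25.7 nt in the unstimulated DIV14 culture (10 tags), 21.9 nt after BDNF (8) and 28.0 nt after KCl for 10 min (4), but 80.9 nt after glu/gly (7), 87.0 nt after KCl for 30 min (3) and 109.5 nt in the unstimulated DIV10 culture (2). Without Csf1r, a choice made after seeing the data, the means were 109 nt unstimulated at DIV14, 123 nt after BDNF, 125 nt after glu/gly, and 104, 103 and 110 nt at DIV10, against medians over genes of 112, 111, 107, 104, 103 and 106 nt. Hippocampal libraries held too few member tags to give tails.

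Across the 12 RNA-seq libraries, genes were ranked by the Pearson correlation of log2(RNA CPM + 1) with the mean of the members, as a description of 11429 genes whose libraries share depth and preparation. Each member followed the mean of the other 8, with r from 0.770 (Tyrobp) to 0.943 (C1qb) in RNA-seq and from 0.856 to 0.979 over 10 ribosome-profiling libraries. The genes most like them in RNA-seq were Aebp1 (r = 0.972), Adamts4 (0.952), Itgam (0.9498), Per1 (0.9498) and Daam2 (0.947). Itgam, the CD11b integrin chain of myeloid cells, had 30.1 and 30.4 RNA CPM in adult hippocampus and cortex, 2.86 in embryonic hippocampus, 1.245 to 5.65 in untransduced cultures and 0 in the 3 transduced ones. Its r over ribosome-profiling libraries was 0.964 and that of Aebp1 0.958, whereas that of Per1, a circadian clock gene, was -0.0747.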

How the data were processed

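The authors mapped reads to mm10 with STAR 2.4.2 and counted them with bedtools, per the labels. RNA-seq reads and RPFs were counted over 1 coding sequence for each gene, leaving out its first 50 nt. Per the study's methods, tail tags were those in annotated 3′ UTRs, mapped with a later STAR version. The deposited files give counts, RPM and RPKM for RNA-seq and RPFs, and tag counts with tail length per gene for tails. The mean tail was taken for TAIL-seq and visual cortex. Accessions were matched to symbols through RefSeq (17158 listed). CPM were computed per 1000000 counts on genes. Between single libraries, shares were compared by exact intervals, with 3 counts as floor. Visual cortex tag counts were tested in edgeR 4.0.16 (TMM, filterByExpr, quasi-likelihood) and mean tails in limma 3.58.1 (R 4.3.3), with an adjusted p threshold of 0.05. Both were tested on simulated data. DESeq2 1.42.0 was an alternative, as were other scalings, filters, cutoffs, left-out mice and a replicate block. The mice are separate animals. Named genes are the 9 members and, by rule, the genes of highest correlation with their mean. The members and gene lists were chosen with earlier results of these data known.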

Additional observations from a re-analysis of the deposited data

Results flagged for a closer look

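Of 36 groups of 4 mice examined (level and tail of each member, dark and light), 1 held a mouse far from the others by Dixon's test, and chance finds about 1 in 20. Cx3cr1 tails in the light mice were 94.7 nt in the third mouse against 81.0, 81.7 and 83.2 nt.

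A ribosome-profiling library of a miRNA-transduced culture, whose labels contradict each other, held 8 member RPFs of 817114, which is 9.79 CPM (4.23 to 19.3). The GFP culture held 2.03 CPM (0.747 to 4.43). The other such library held 10 member RPFs of 6428048, or 1.56 CPM (0.746 to 2.86).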

How the results depend on the processing

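Of 288 alternative values 238 were scored the same as the main value. For members under light this meant the same sign and side of the threshold. For ratios and TE percentiles it meant a value inside the main interval. For counts of genes or members it meant a count near or equal to the main one. For light, the 128 genes called became 100 to 150 without 1 mouse, and none of 195 alternative member values had an adjusted p under 0.05 (lowest 0.49 for levels and 0.68 for tails). Deviations of mice of the same number correlated with r from -0.196 to 0.0405. No pairing by number was seen, though these values cannot exclude one. A replicate block gave 113 calls for levels and 1 for tails. The 10 genes called for tails became 1 on a log2 scale, 7 with at least 100 tags and 1 to 21 without 1 mouse. The log2 change of C1qb turned from -0.0020 to 0.00053 with RLE scaling and 0.0052 without the filter. Without 1 mouse the log2 changes ran from -0.15 to 0.11 (C1qa), -0.13 to 0.11 (C1qb), -0.12 to 0.062 (C1qc), -0.082 to 0.029 (Cx3cr1) and -0.10 to 0.048 (P2ry12), and tail differences from -1.21 to 6.53 nt (Csf1r), -2.93 to 2.67 nt (Cx3cr1) and -5.07 to 3.65 nt (P2ry12). The summed ratio of adult cortex to culture was 24.8 with RPFs. That of adult to embryonic hippocampus was 3.88 with deposited RPM, 5.54 with TMM, 7.33 with RPFs, 1.79 with tail tags and, chosen after seeing the data, 6.44 with RPFs of the other 6 members. That of cortex to hippocampus was 0.612 with deposited RPM, under which 2 members in place of 0 were past 2-fold by RNA-seq, and 2.84 with tail tags. The median TE percentile in adult hippocampus was 92.6 at 30 RPM (1 member) and 72.0 at 5 RPM (7), and in adult cortex 86.5 at 30 RPM (1). No member was left at 30 RPM in the embryo, and miRNA against GFP cultures gave no RNA-seq ratio (3 counts or fewer in each). Where the cause is not a change of samples, members or assay, the cause was not tested. Depth limits the culture values, which rest on 1 to 56 member reads.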
